A study of Mus musculus with 6 samples.

Results

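The mRNA levels of the NF-κB subunits and of their feedback genes were followed in N18-Fms cells, a murine prostate cancer subclone made to express the CSF-1 receptor. The set held 10 genes chosen by name from the known make-up of the pathway, with earlier results of these data known. They were the subunit genes Nfkb1, Nfkb2, Rel, Rela and Relb, and the inhibitor genes Nfkbia and Nfkbie. The others were the nuclear IκB genes Nfkbiz and Bcl3 and the feedback enzyme gene Tnfaip3. All 10 had a usable probe, among 36028 genes on the array that had one. Of these 10, 9 were among the 24648 genes tested, and Rel was too dim to be tested.

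NF-κB factors are dimers of Rel-homology proteins that are held in the cytoplasm by IκB proteins. In the canonical pathway, IκB kinase marks the IκB proteins for destruction and dimers such as p50/RelA enter the nucleus, whereas in the alternative pathway the p100 precursor encoded by Nfkb2 is processed to p52, which pairs with RelB. Several inhibitors and subunits are themselves transcribed from NF-κB target genes, which closes feedback loops, and in epithelial tumors the pathway is known for driving cytokine, adhesion and survival genes.

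N18 is 1 neomycin-resistant luciferase subclone of TRAMP C2H, a clonal epithelial line from the TRAMP prostate tumor model. Its Fms derivative, written N18-CFMS in the labels, carries retrovirally transduced murine c-fms and was sorted by flow cytometry for receptor at the cell surface, so every group expressed the receptor and none represents cells without it. All groups grew in medium with fetal bovine serum and dihydrotestosterone, and according to the study the C2H cells and their subclones secrete CSF-1, so that unstimulated means without added ligand. Of the 6 arrays, 2 held RNA of vehicle-treated cells (Control) and 4 that of cells given 100 ng/mL of recombinant murine CSF-1, harvested after 24 h on 2 arrays and after 48 h on the other 2. The times are those of the labels, whereas the methods name shorter ones. RNA came from 2 independent experiments, each array carried 1 Cy3-labeled sample, and a level below is the log2 of the spot signal minus the 75th percentile of its array. With 2 arrays a group, the p-values of limma measure the spread between these arrays, and an exact test of 2 against 2 could not go below 0.333.

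Promoter sequence was at hand for 7 of the 10 genes and is shown because many known NF-κB target genes carry a κB element close to their start. RefSeq promoters of GRCm38.p6, from 250 bases before a start site to 50 bases from it on, were searched on both strands for the 10-base κB consensus. Of the matches found, 1 window each is shown for Nfkbie, Bcl3, Nfkbia, Tnfaip3 and Rel and 2 windows for the first Nfkb2 start site. Each window below is read along the strand of its gene, with the match in capitals and 10 bases on either side.
Nfkb2, first window: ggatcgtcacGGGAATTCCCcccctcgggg
Nfkb2, second window: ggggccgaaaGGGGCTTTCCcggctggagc
Nfkbie: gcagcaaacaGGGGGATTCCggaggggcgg
Bcl3: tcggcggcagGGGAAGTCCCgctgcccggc
Nfkbia: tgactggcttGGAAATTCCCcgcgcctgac
Tnfaip3: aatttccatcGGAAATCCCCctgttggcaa
Rel: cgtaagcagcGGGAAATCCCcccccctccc

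The Nfkb2 windows lie at chr19:46304688-46304717 and chr19:46304716-46304745 on the plus strand, with matches that begin 39 and 11 bases before a start site. The Nfkbie window lies at chr17:45555584-45555613 on the plus strand and its match begins 106 bases before the start. The Bcl3 window lies at chr7:19822734-19822763 on the minus strand and its match begins 2 bases after the start. The other minus-strand windows are those of Nfkbia at chr12:55492657-55492686, Tnfaip3 at chr10:19015403-19015432 and Rel at chr11:23771042-23771071, with matches that begin 29, 12 and 92 bases before the start. Not shown are a further Tnfaip3 match that begins 125 bases before the same start, and Nfkb2 matches that begin 236 bases before and 10 bases after its second start site, the latter also lying 225 bases before the third. Matches on the opposite strand that overlap a shown one are left out too. They begin 38 bases before the first Nfkb2 start and 91 bases before the Rel start. Of the 7 genes with promoter sequence, 6 held the κB consensus, the exception being Rela, whereas 9.55% of all 27025 genes in the same table held it. Counted by promoter, 8 of 10 promoters of these genes and 8.46% of all 32851 promoters had a match. The GAS element TTCNNNGAA, which binds STAT dimers and was searched in the same way, occurred in Nfkb2 alone among the 7 genes and in 9.55% of all genes, and it overlapped no κB match there. The promoters of Nfkb1, Relb and Nfkbiz were not analysed here.

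**Figure D1:**
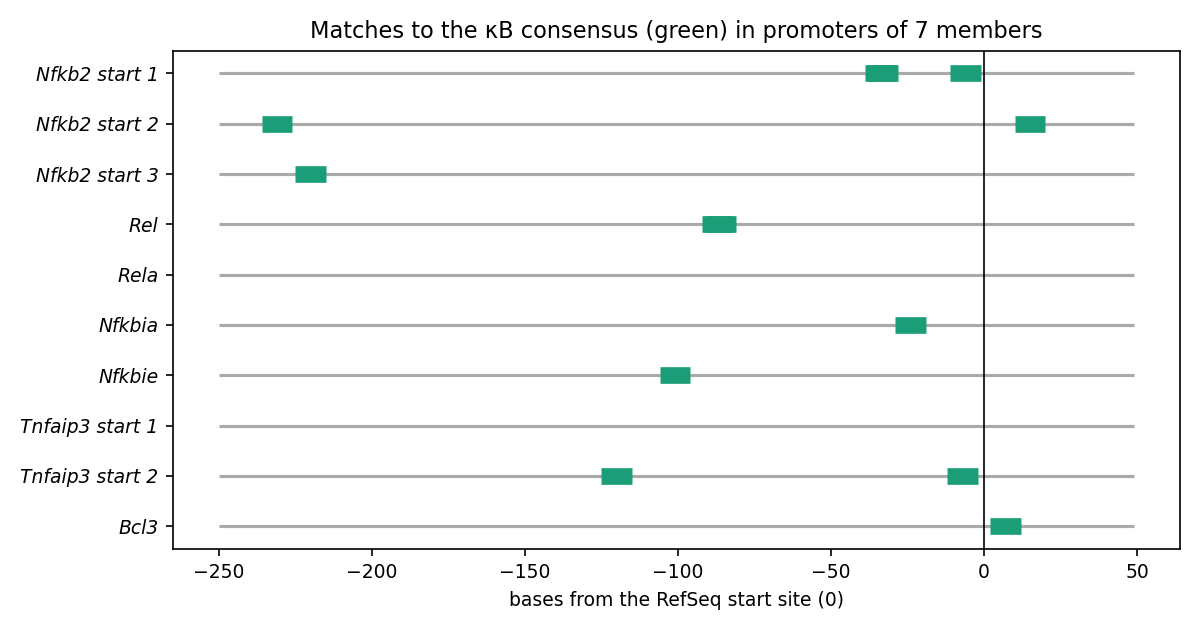
Matches to the κB consensus (green) in the RefSeq promoters of 7 genes, 1 grey line per start site, with the distance in bases from the start site (0, vertical line) on the horizontal axis. The match of Bcl3 lies just after its start, that of Nfkbia begins 29 bases before its start, Tnfaip3 has matches 125 and 12 bases before 1 of its starts, and Rela has none.

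Of the 9 genes tested, 5 rose at both times of CSF-1 stimulation and none fell. These were Bcl3, which rose 11.7-fold at 24 h and 7.18-fold at 48 h, Nfkbiz, which rose 2.84-fold and 2.08-fold, and Nfkb2, Relb and Nfkbie, which rose by a factor between 1.90 and 1.98 at 24 h and between 1.54 and 1.58 at 48 h. The canonical subunit genes Nfkb1 and Rela, and Nfkbia, did not pass the test at either time, and neither did Tnfaip3. All calls are at a Benjamini-Hochberg adjusted p under 0.05 over all genes tested, in limma. By that rule 8.02% of all genes tested were called higher and 5.99% lower at 24 h, and 6.58% higher and 7.38% lower at 48 h. In the same 5 genes, each of the 4 stimulated arrays lay above both Control arrays, a pattern that 18% of all genes tested showed, and in none of the 9 did they all lie below, which 23.3% of all genes tested did. The median log2 fold change of the 9 genes was 0.93 at 24 h and 0.64 at 48 h, beside 0.037 and -0.044 over all genes tested. Both times share the Control arrays. Because the set was chosen with earlier results known, setting its counts beside these shares carries no test.

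**Figure D2:**
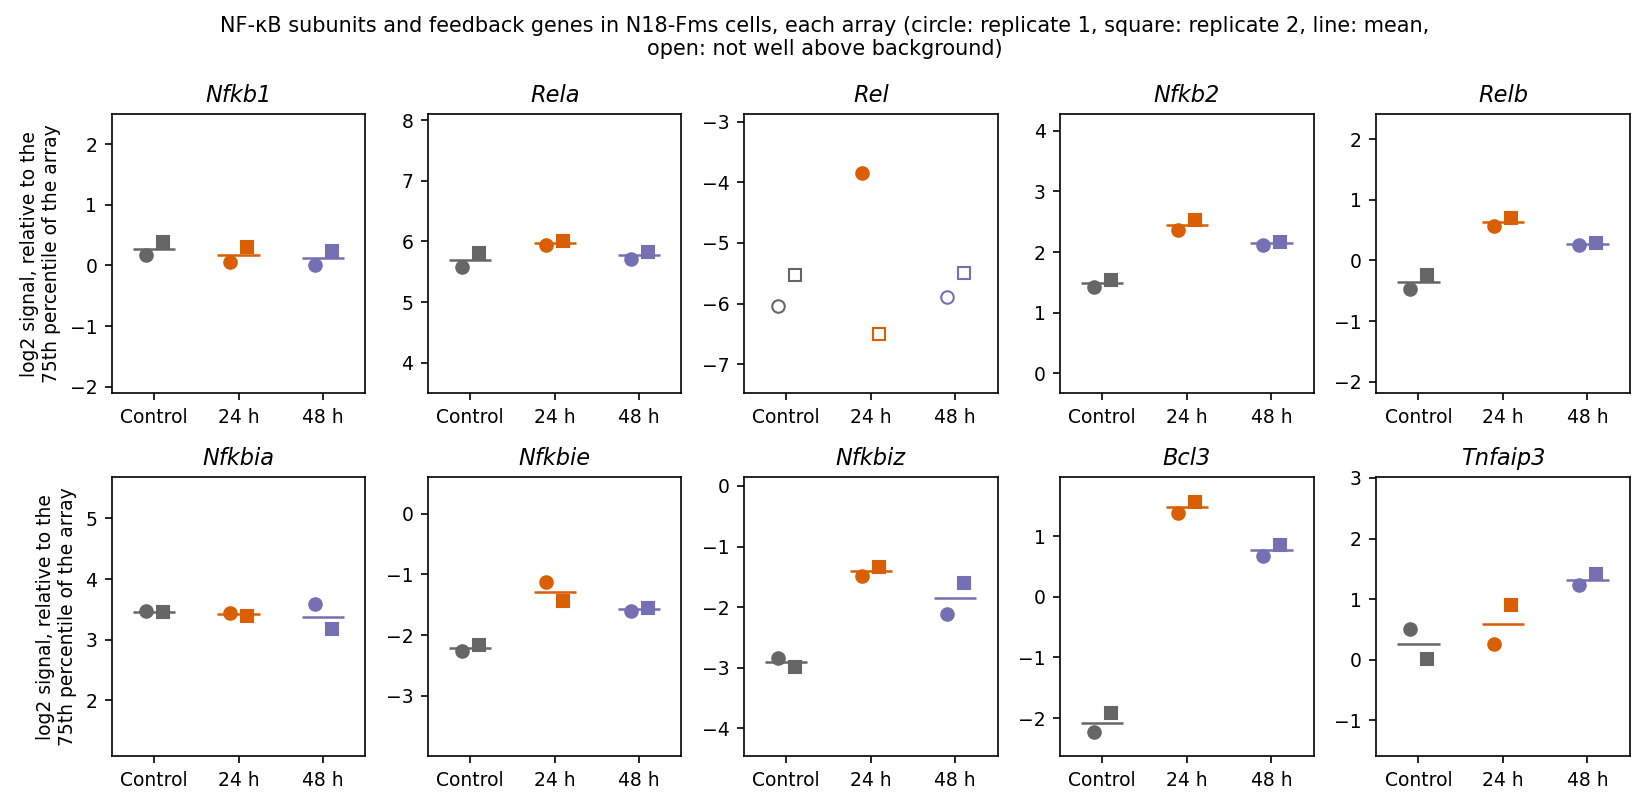
Level of each gene on each of the 6 arrays (vertical axis, log2 signal relative to the 75th percentile of the array, with a range that differs between panels), by group, for the probe used in the test. Circles are replicate 1, squares replicate 2, lines group means, and open symbols were not well above background. The stimulated arrays stand clear of Control for Bcl3, Nfkbiz, Nfkb2, Relb and Nfkbie.

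At this threshold the number of calls depended on single arrays. When 1 array at a time was left out, between 1 and 5 of the 9 genes were called at 24 h and 1 or 2 at 48 h, and Bcl3 was called each time at both. Calls over all genes tested shrank as well, from 3454 to between 899 and 2539 at 24 h and from 3441 to between 889 and 2116 at 48 h. Replicate 1 of 24 h sat alone on its slide, and the other 5 arrays shared a slide. Within that shared slide 24 h had only 1 array, so this is the fit without replicate 1 of 24 h, already among those above. Its log2 fold changes at 24 h were 3.65 for Bcl3, 1.04 for Nfkb2, 1.58 for Nfkbiz, 1.06 for Relb and 0.77 for Nfkbie. The direction of all 5 genes was the same within the shared slide.

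Bcl3 encodes a nuclear IκB protein that binds p50 and p52 homodimers and can turn them into activators. Its level was -2.23 and -1.92 on the Control arrays, 1.38 and 1.57 on the 24 h arrays, and 0.68 and 0.86 on the 48 h arrays. The corresponding spot signals before scaling were 117 and 162, 1485 and 1775, and 886 and 1093. The groups did not overlap, all stimulated arrays lay far above both Control arrays, and both 48 h arrays lay below both 24 h arrays. The log2 fold change was 3.55 at 24 h (SE 0.16, adjusted p = 0.0013) and 2.84 at 48 h (SE 0.16, adjusted p = 0.0014). This was the largest change among the 9 genes at both times, with this scaling and under every alternative tried.

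Nfkbiz encodes IκBζ, a nuclear IκB protein needed for the induction of secondary NF-κB target genes such as Il6. Its level was -2.84 and -2.99 in Control, -1.48 and -1.33 at 24 h, and -2.11 and -1.60 at 48 h. Both times lay above Control, and the 48 h arrays, which stood further apart than the other pairs, lay below the 24 h arrays. The log2 fold change was 1.51 at 24 h (SE 0.20, adjusted p = 0.0110) and 1.06 at 48 h (SE 0.20, adjusted p = 0.0277). Normexp background correction, whose offset of 50 compresses dim spots, lowered these to 0.98 and 0.66 with the calls kept.

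Both subunit genes of the alternative pathway, Nfkb2 and Relb, rose by similar amounts. The level of Nfkb2, which encodes p100 and its product p52, was 1.42 and 1.54 in Control, 2.37 and 2.53 at 24 h, and 2.12 and 2.17 at 48 h. The 3 groups did not overlap and 48 h lay between Control and 24 h. The log2 fold change was 0.96 at 24 h (SE 0.12, adjusted p = 0.0097) and 0.66 at 48 h (SE 0.12, adjusted p = 0.0254). Relb, which encodes the partner of p52, was measured by 2 probes that overlap at their ends. The brighter one read -0.48 and -0.23 in Control, 0.56 and 0.70 at 24 h, and 0.25 and 0.30 at 48 h, again without overlap and with 48 h in between. Its log2 fold change was 0.99 at 24 h (SE 0.13, adjusted p = 0.0121) and 0.63 at 48 h (SE 0.13, adjusted p = 0.0386). Of 19 alternative settings, 15 kept the 24 h call of Relb and 8 its 48 h call. The other probe read -0.35 and -0.37 in Control, 0.30 and 0.53 at 24 h, and 0.12 and 0.20 at 48 h. It gave log2 fold changes of 0.77 and 0.52, of which the first passed (adjusted p = 0.0225 over all probes tested) and the second did not (adjusted p = 0.0597), so the 2 probes share the direction and differ in the call at 48 h.

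The canonical subunit genes gave no call. Nfkb1 encodes p105 and its product p50, and its brighter probe, spotted at 2 positions, read 0.17 and 0.38 in Control, 0.05 and 0.30 at 24 h, and 0.01 and 0.24 at 48 h. The groups overlapped, with log2 fold changes of -0.10 at 24 h (95% confidence interval -0.50 to 0.30) and -0.15 at 48 h (-0.54 to 0.25). Its second probe read -0.37 and -0.24, then -0.26 and -0.24, then -0.62 and -0.46, and its log2 fold change was 0.058 at 24 h and -0.23 at 48 h, neither of them called. Rela, which encodes the main transactivating subunit, read 5.59 and 5.81 in Control, 5.94 and 6.01 at 24 h, and 5.71 and 5.83 at 48 h. The 24 h arrays lay above both Control arrays and the 48 h arrays overlapped with them. The log2 fold change of Rela was 0.28 at 24 h (confidence interval -0.05 to 0.60, adjusted p = 0.22) and 0.07 at 48 h (-0.25 to 0.40, adjusted p = 0.76), and centring the arrays on their median turned both values to just below 0 (-0.0078 and -0.028). Rel, which encodes c-Rel, a subunit most abundant in lymphoid and myeloid cells, was well above background on 1 of 6 arrays, the 24 h array on the separate slide, with a spot signal of 39.6.

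The genes of the cytoplasmic inhibitors differed from each other. Nfkbia encodes IκBα, the classical fast feedback inhibitor, and read 3.47 and 3.46 in Control, 3.45 and 3.39 at 24 h, and 3.58 and 3.17 at 48 h. The 2 Control arrays and the 2 24 h arrays were nearly level, and the 48 h arrays lay on either side of them. The log2 fold change was -0.05 at 24 h (confidence interval -0.45 to 0.36) and -0.09 at 48 h (-0.49 to 0.32), and quantile normalization turned the 24 h value to 0.029. Nfkbie encodes IκBε, a slower inhibitor of RelA and c-Rel dimers, and read -2.27 and -2.16 in Control, -1.13 and -1.44 at 24 h, and -1.60 and -1.55 at 48 h. All stimulated arrays lay above Control. Its log2 fold change was 0.93 at 24 h (SE 0.14, adjusted p = 0.0176) and 0.64 at 48 h (SE 0.14, adjusted p = 0.0445). Of 18 alternative settings, 13 kept the 24 h call of Nfkbie and only 5 its 48 h call.

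Tnfaip3 encodes A20, a ubiquitin-editing enzyme that shuts off signaling to IκB kinase. Its level was 0.51 and 0.01 in Control, 0.26 and 0.90 at 24 h, and 1.23 and 1.41 at 48 h. The 24 h arrays overlapped with Control, and both 48 h arrays lay above the other 4. The log2 fold change was 0.32 at 24 h (confidence interval -0.37 to 1.01, adjusted p = 0.49) and 1.06 at 48 h (0.37 to 1.75, adjusted p = 0.0615), so neither time was called. At 48 h it was called under 4 of 18 alternative settings, and it also passed an unadjusted p under 0.05 with a fold of at least 2.

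**Figure D3:**
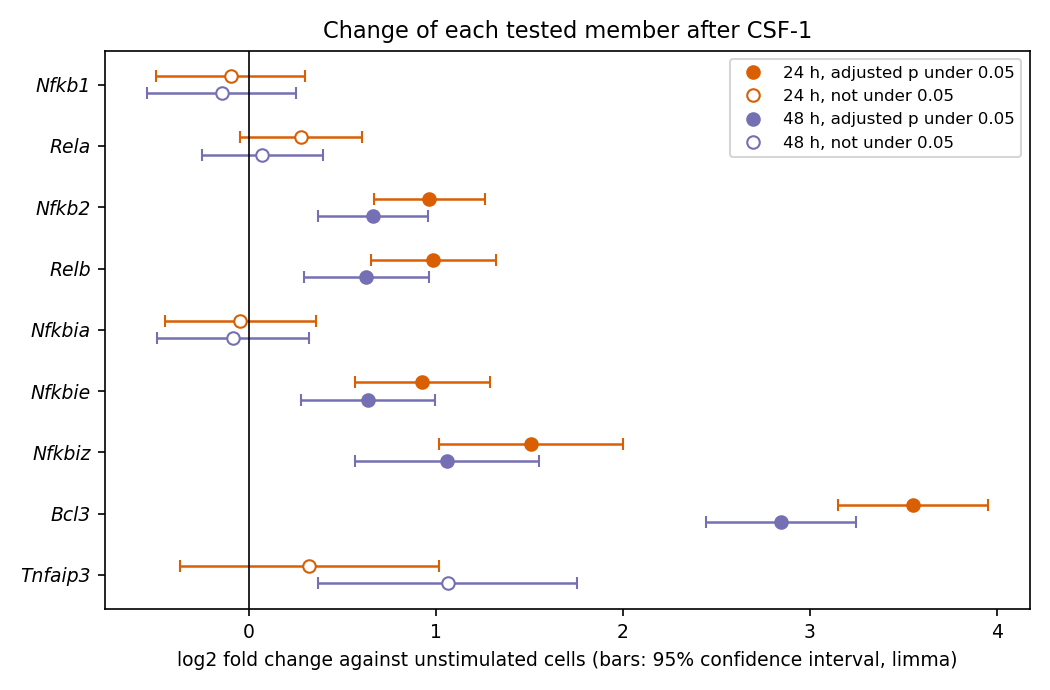
Log2 fold change against Control of the 9 genes tested (horizontal axis), at 24 h (orange) and 48 h (purple), with limma's 95% confidence intervals as bars and filled symbols for adjusted p under 0.05. Bcl3 stands at 3.55 and 2.84, Nfkb2, Relb, Nfkbie and Nfkbiz between 0.63 and 1.51, and the intervals of Nfkb1, Rela and Nfkbia include 0.

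Between 24 h and 48 h, none of the 9 genes was called, nor was any of all genes tested (0%), although 13.6% of them had an unadjusted p under 0.05. At that unadjusted threshold 4 of the 9 genes passed, namely Bcl3, Nfkb2 and Relb, lower at 48 h, and Tnfaip3, higher at 48 h. The level of Bcl3 was lower at 48 h by a log2 difference of -0.71 (confidence interval -1.11 to -0.30, adjusted p = 0.185). The differences were -0.30 for Nfkb2 (adjusted p = 0.36) and -0.36 for Relb (adjusted p = 0.34). Tnfaip3 was the only one of the 9 with a higher mean at 48 h, by 0.74 (confidence interval 0.05 to 1.43, adjusted p = 0.34). The other 8 genes had lower means at 48 h, as did 65.1% of all genes tested.

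Differences taken within each array cancel the scaling between arrays, and were added after the levels had been seen. Relative to the Control mean, the level of Nfkb2 minus that of Nfkb1 was 1.11 and 1.02 on the 24 h arrays and 0.91 and 0.71 on the 48 h arrays. Relb minus Rela was 0.68 and 0.74 on the 24 h arrays, then 0.59 and 0.52 on the 48 h arrays. The Control arrays differed from their own mean by at most 0.047 and 0.0084 in these differences, and all 4 stimulated arrays lay above both. The pairs were picked for their levels, so these differences restate the levels above and carry no test. Nfkbie minus Nfkbia averaged 0.97 at 24 h and 0.72 at 48 h, with every stimulated array above both Control arrays. A ratio within an array shows unequal change and does not show that Nfkb1, Rela or Nfkbia stayed level.

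**Figure D4:**
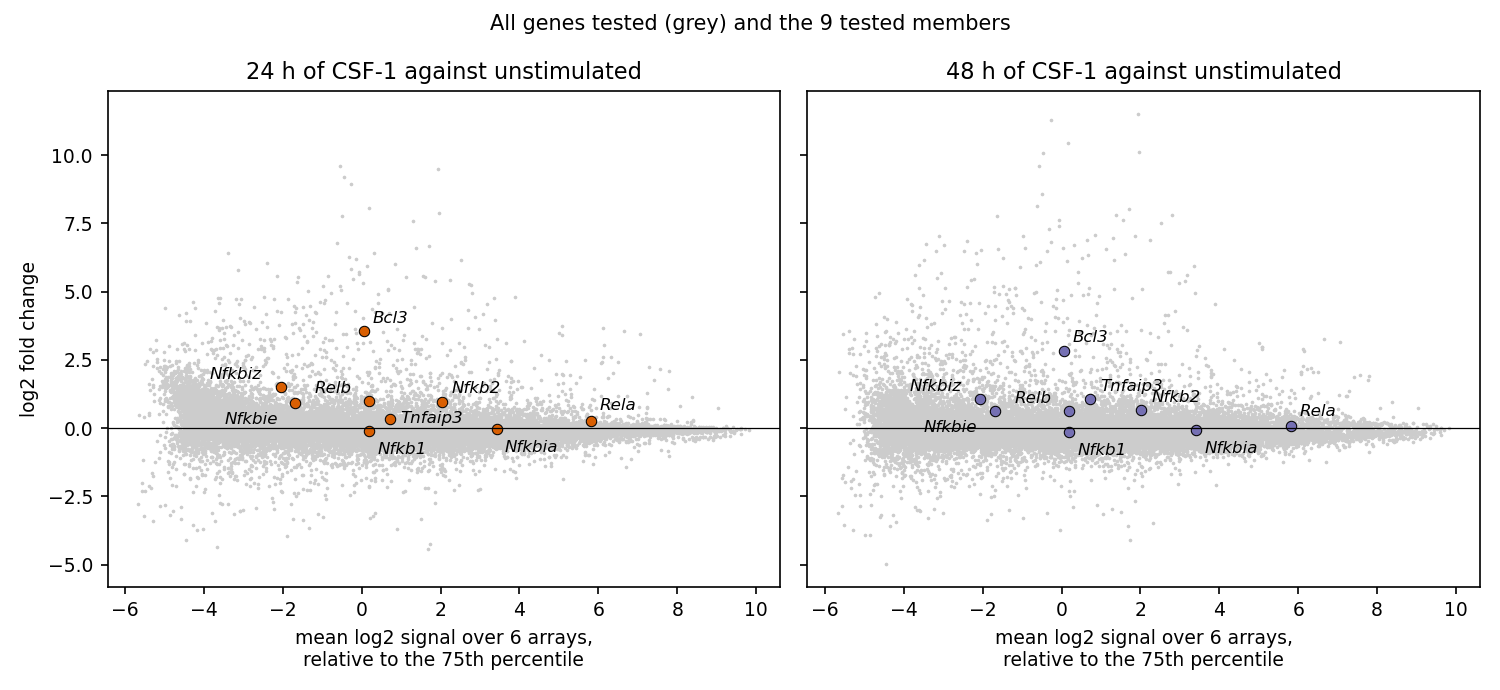
Log2 fold change against Control (vertical axis) over the mean level on the 6 arrays (horizontal axis, log2 signal relative to the 75th percentile) for all 24648 genes tested (grey) and the 9 NF-κB genes (colored), at 24 h (left) and 48 h (right). Bcl3 lies above the bulk of genes of its level at both times, and Rela and Nfkbia lie near 0.

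Around these 9 genes, the rest of the pathway was read from lists of textbook members. None of the 5 further IκB and IκB-binding genes was called at either time, and in the median their log2 fold change was 0.20 after 24 h and -0.0055 after 48 h. Among 31 kinase and adaptor genes tested of 32, 6 were higher and 1 lower at 24 h, and 4 were higher and 0 lower at 48 h, with medians of 0.090 and 0.049. The genes of the IκB kinase catalytic subunits, Chuk and Ikbkb, had log2 fold changes between -0.04 and 0.05 at both times, and Map3k14, which encodes the kinase that starts the alternative pathway, had -0.53 and -0.81, not called; these 3 genes are named after their values were seen. The changes called at both times were those of Myd88, the adaptor of Toll-like and interleukin-1 receptors (1.41 at 24 h and 1.08 at 48 h), Rnf31, the catalytic subunit of the linear ubiquitin ligase (1.11 and 1.08), and Irak4, the kinase that Myd88 recruits (0.98 and 0.75).

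Among 16 negative regulator genes tested of 18, 4 were higher and 2 lower at 24 h, and 3 were higher and 2 lower at 48 h. Cyld, which encodes a deubiquitinase that removes signaling ubiquitin chains, read 1.51 and 1.40 in Control, -0.40 and -0.56 at 24 h, and 0.15 and -0.12 at 48 h. All 4 stimulated arrays lay below Control, and its level fell by 1.94 at 24 h (adjusted p = 0.0031) and by 1.44 at 48 h (adjusted p = 0.0055) on the log2 scale. Rnf11, a subunit of the A20 ubiquitin-editing complex, rose by 1.66 and 1.36, and Sigirr, a decoy-type receptor that dampens interleukin-1 receptor signaling, rose by 0.93 and 0.64. Nlrc5, described both as an NF-κB inhibitor and as the transactivator of MHC class I genes, was not well above background on either Control array and entered the test through its stimulated arrays alone, so that the fit set them against background-level values. The adjusted p of this fit was 0.0319 at 24 h and 0.0164 at 48 h. Set against the lowest signal well above background on each Control array, or its own where higher, it was 4.24-fold and 8.39-fold higher.

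Of 40 textbook target genes, 39 were on the array and 26 were tested, of which 13 were higher and 3 lower at 24 h, and 12 higher and 2 lower at 48 h. In the median the log2 fold change was 1.08 after 24 h and 0.78 after 48 h. The list filtered out 13 dim genes, Tnf and Il1b among them, so these counts do not speak for the whole list. Of the target genes called higher, 4 at 24 h (Il6, Lif, Csf2 and Sele) and 3 at 48 h (without Lif) lacked a well measured level on at least 1 Control array, and 9 at each time had both Control arrays well above background. Cxcl10, a chemokine also induced by interferons, had log2 fold changes of 5.55 and 6.55, and Il6, the cytokine gene that depends on IκBζ in macrophages, had 5.56 and 6.41, with only 1 of its Control arrays well above background. Sele, which encodes the adhesion molecule E-selectin, was above background on no Control array and entered the test through its stimulated arrays alone. The fit, which set them against background-level values, gave an adjusted p of 0.00099 at 24 h and 0.0012 at 48 h. Set against the lowest signal well above background on each Control array, Sele was 7.31-fold and 2.89-fold higher. Ier3, an early response gene that modulates survival, rose by 2.96 and 2.20. After normexp correction the log2 fold changes of Il6 were 2.45 and 3.23, still called. Vcam1 and Gadd45b, named after their values were seen, were target genes that fell at both times, with log2 fold changes of -2.02 and -1.34 for Vcam1, an adhesion molecule, and -1.25 and -1.30 for Gadd45b, a stress response gene.

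**Figure D5:**
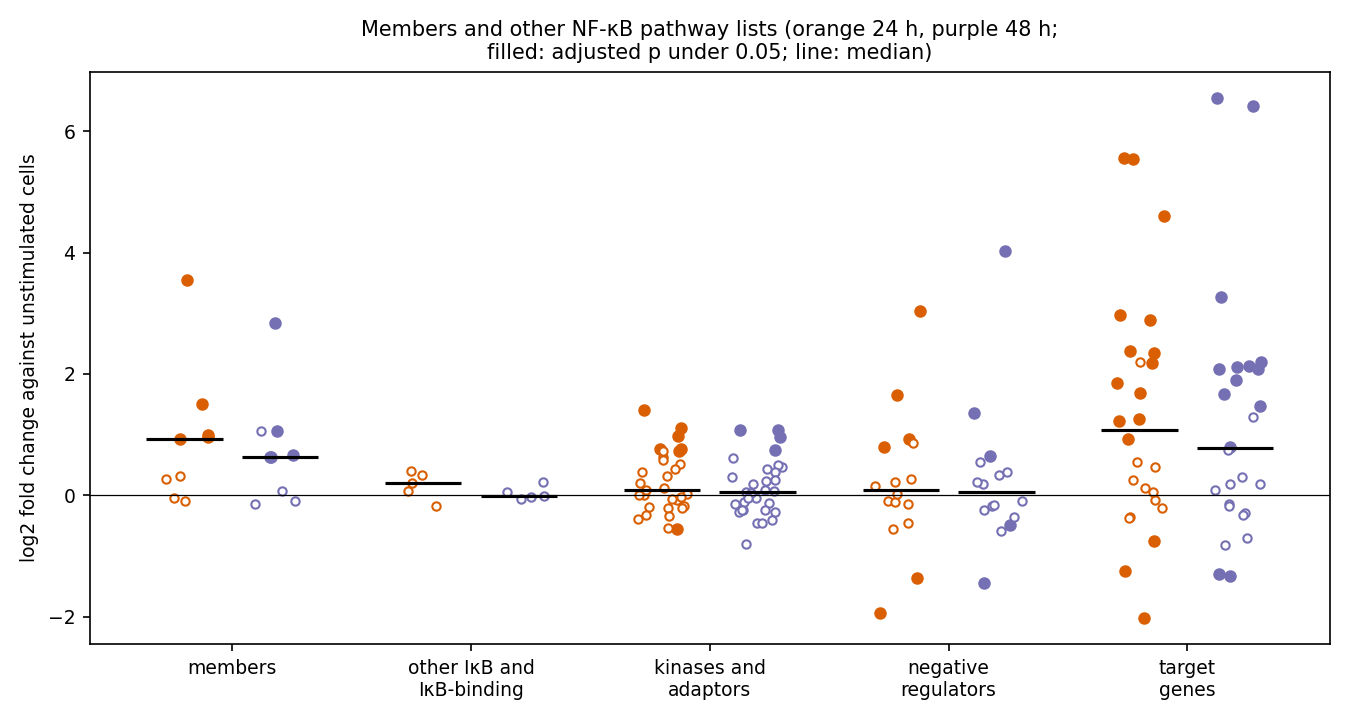
Log2 fold change against Control (vertical axis) of every tested gene of the NF-κB set and of 4 pathway lists (horizontal axis), at 24 h (orange) and 48 h (purple), with black lines for medians and filled points for adjusted p under 0.05. Median changes are 0.93 and 0.64 in the NF-κB set and 1.08 and 0.78 in the target genes, and at most 0.20 in the other lists.

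Across these 4 lists, 20 of 78 genes tested were called at both times, 17 of them higher and 3 lower, beside 4.91% of all genes tested that were higher and 4.04% that were lower at both times. The 17 include Nlrc5, Il6, Csf2 and Sele, which lacked a well measured level on at least 1 Control array and entered the test through their stimulated arrays. The lists were chosen with earlier results known, so these shares carry no test. Taking the Euclidean distance over the 6 arrays between levels centred on their Control mean, the genes most like Bcl3 were Spp1, the gene of osteopontin (0.438), Angptl4, an inhibitor of lipoprotein lipase (0.438), and BC057675 (0.446). Spp1 had log2 fold changes of 3.43 and 2.97, Angptl4 3.69 and 2.90, and BC057675 3.49 and 3.13. The genes most like Nfkb1, the gene of the set with the lowest mean change, were Arhgap23 (0.0877), Cchcr1 (0.0962) and Atxn2l (0.101), all with levels that differed little between groups.

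Receptor and ligand transcripts were well above background on all 6 arrays. Csf1r read 4.88 and 5.13 in Control, 5.12 and 5.34 at 24 h, then 4.96 and 4.90 at 48 h. Csf1 read 4.08 and 4.28 in Control, then 3.48 and 4.16, then 3.18 and 3.77. Among prostate epithelial markers, Krt5, Krt8, Krt14 and Trp63 were well above background on all arrays, whereas Cdh1 and Hoxb13 were so on none. The spot signals of Krt5 and Krt14 were low, from 47 to 103. Krt8 was called higher at 48 h (log2 fold change 1.98, adjusted p = 0.0106 in limma) and not at 24 h (0.74). Krt5, Krt14 and Trp63 were called at neither time. Of 13 macrophage markers, 6 were above background throughout and the defining genes Lyz2 and Spi1 on no array. The summed macrophage marker level, in multiples of the 75th percentile signal, was 43.7 to 49.2 in Control, 37.1 to 44.7 at 24 h and 30.4 to 40.1 at 48 h, but Itgam alone made 69.3% to 85.9% of it on each array. Without Itgam the sum was 6.27 to 6.94 in Control, 11.01 to 11.38 at 24 h and 9.34 to 9.78 at 48 h, and Mrc1 (4.27 and 3.56) and Cd14 (0.87 and 0.69) were called higher. Of the 8 macrophage markers tested, 7 had a positive log2 fold change at 24 h (median 0.38) and 5 at 48 h (median 0.10). Of all 24648 genes tested, 13439 had a positive value at 24 h and 11053 at 48 h. The summed level of 6 fibroblast markers was 327 to 330 in Control, 139 to 149 at 24 h and 124 to 167 at 48 h. Col1a2 alone made 48.7% to 59.9% of that sum on each array. Without Col1a2 the sum was 133 to 136 in Control, 71.2 to 73.3 at 24 h and 56.0 to 67.1 at 48 h. Col1a1, Col1a2 and Col3a1 were called lower and Dcn higher at both times. Pdgfra was called higher at 24 h alone, and Thy1 was called at neither time. Lymphocyte markers summed to 19.2 to 24.1 in Control, 21.4 to 23.9 at 24 h and 22.0 to 30.6 at 48 h, with Cd3g and Ms4a1 on no array. Cd4 alone made 64.3% to 72.6% of that sum on each array. Endothelial markers summed to between 18.7 and 25.4 over all arrays, of which Kdr made at least 93.0%, with Tie1 on no array. Of 4 endothelial markers tested, Cdh5 alone was called higher (3.87 and 3.97), with only 1 of its Control arrays well above background. The part of these shifts in the NF-κB results was not tested, and in bulk RNA fewer cells of a type and less RNA per cell cannot be told apart.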

How the data were processed

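The authors hybridized Cy3-labeled cRNA of each sample to 1 SurePrint G3 mouse array and quantified it with Agilent Feature Extraction 11.0.1, per the labels. The deposited spot values are linear intensities, background-subtracted by that software and not normalized between arrays, beside mean and local background intensities and quality flags. A further deposited table holds log2 values of the authors for 44323 of the probes used, whose normalization is not given in the sources used here, and 99.78% of whose differences between arrays lay within 0.05 of those of the log2 signal after a constant per array. These log2 values served as an alternative.

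Flagged outlier spots were left out (303 probes had every spot flagged on some array), spots of a probe were averaged, the 75th percentile of the array was subtracted from the log2 signal, and the brightest probe stood for each gene. A gene was tested where some group had both of its arrays well above background. The 2-sided test was limma's moderated one (limma 3.58.1 in R 4.3.3, with data.table version 1.17.8 to read files) in a single fit of all 6 arrays, with degrees of freedom of 3 (residual) and 2.39 (prior), and p-values were adjusted by Benjamini and Hochberg over all genes tested. Genes were called at an adjusted p under 0.05. A fold against a group with no array well above background was taken against the higher of the lowest signal well above background and the gene's own. Some spots above that lowest signal were still flagged as dim, so such a fold is not a strict lower bound. The script was tested on simulated data.

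Per array, 58.7% to 72.0% of 59305 spots were well above background and 0 were saturated, and replicate arrays had a Pearson correlation across genes of 0.993 to 0.994. The number of arrays limits the precision. The files place the probes on mouse build mm9, with the Bcl3 probe at chr7:20393826-20393885, Nfkb2 at chr19:46386146-46386285, the brighter Relb probe at chr7:20191722-20191781, Nfkbie at chr17:45700000-45700059, Nfkbiz at chr16:55817859-55817918 and Tnfaip3 at chr10:18720776-18720835, while promoters are on GRCm38.p6, and coordinates were not carried between them. No exon annotation of mm9 was used here.

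The NF-κB genes, the pathway lists and the markers were chosen with earlier results of these data known, and some epithelial markers are not reported here. Genes named beyond the set are, per list, up to 4 with the largest mean change among those called at both times, Csf1r and Csf1, and the 3 nearest neighbors of the genes with the highest and the lowest mean change. Chuk, Ikbkb, Map3k14, Vcam1, Gadd45b, Tnf, Il1b, Lif and Csf2 are named outside this rule. Markers are given as counts and levels. The fold changes of Mrc1, Cd14, Cdh5 and Krt8 are also given outside this rule. So are the calls of these and of Krt5, Krt14, Trp63, Col1a1, Col1a2, Col3a1, Dcn, Pdgfra and Thy1. Alternatives were other scalings, background corrections, filters and probe rules, 2-group fits, the replicate number as a block, each array left out, and the methods' t-test.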

Additional observations from a re-analysis of the deposited data

How the results depend on the processing

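Bcl3 was called at both times under every alternative except the methods' t-test with Benjamini-Hochberg adjustment, and the 5 genes called at 24 h and at 48 h kept their direction under all of them. At 24 h the count of 5 became 2 (Nfkbiz and Bcl3) at an unadjusted p under 0.05 with a fold of at least 2, 0 by the methods' t-test after Benjamini-Hochberg adjustment and 2 by it at that unadjusted threshold. With 1 array left out it ranged from 1 (without the first Control array, Bcl3 alone) to 5, being 3 without the second Control array and 2 without either 24 h array. At 48 h the count of 5 became 3 unadjusted with a fold of at least 2 (Nfkbiz and Bcl3, with Tnfaip3 newly passing), 2 by median centring (Nfkbiz and Bcl3), 1 without the filter on dim probes, 2 with only the groups compared, 0 by the methods' t-test after adjustment and 1 by it unadjusted, and 1 to 2 with 1 array left out (1 without either Control array or the second 48 h array). Between the times the count of 0 became 1 (Bcl3) after normexp with quantile normalization. The 20 pathway genes called at both times became 7 without the filter on dim probes, 0 and 13 by the methods' t-test adjusted and unadjusted, and 9 to 15 with 1 array left out (9 without either Control array or the second 48 h array, 10 and 11 without a 24 h array). Median centring moved the median of all genes tested to -0.25 at 24 h and -0.14 at 48 h. Genes called higher and lower at 24 h were 1977 and 1477 in the scaling used, 1197 and 3706 by median centring, 2071 and 2340 after normexp and 1773 and 2173 after normexp with quantile normalization, and at 48 h 1621 and 1820 in the scaling used, 1204 and 1890 by median centring, 1837 and 2942 after normexp and 1980 and 2659 after normexp with quantile normalization. An intensity trend in the prior spread gave 2154 and 2558 at 24 h and 2064 and 3413 at 48 h, all genes without the filter on dim probes 968 and 351, and 660 and 210. The sign turned only for genes not called: for Nfkb1 at 24 h with its other probe (0.058) and with an array left out (-0.22 to 0.025), and between the times by median centring (0.14) and with an array left out (-0.17 to 0.075); for Rela by median centring (-0.0078 at 24 h and -0.028 at 48 h) and at 48 h with an array left out (-0.042 to 0.19); for Nfkbia at 24 h by quantile normalization (0.029) and normexp with quantile normalization (0.028), between the times by median centring (0.14), and with an array left out at 48 h (-0.29 to 0.12) and between the times (-0.24 to 0.16); and for Tnfaip3 at 24 h with an array left out (-0.00060 to 0.64). The cause of these shifts was not tested. In all, 414 values of these genes kept direction and side of the threshold, 58 fell below it, 5 passed it and 15 turned sign. The sources used here do not state whether equal replicate numbers mark the same experiment. Same-numbered arrays had correlations of their deviations of 0.128, 0.0941 and 0.199, which neither show nor exclude pairing. With the replicate number as a block, 5 genes were called at 24 h, 4 at 48 h and 0 between the times, and 20 of the pathway genes at both times. With 2 arrays a group, differences of the size seen for Nfkbie at 48 h lay at the limit of what could be called.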
